A study of Mus musculus with 2 samples.

Results

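The MEF2 family consists of 4 genes, Mef2a, Mef2b, Mef2c and Mef2d, and the measurements here are the GATA4 peaks of mouse myoblasts that lie near them. A peak was taken as a member when its centre fell inside the span of one of these genes in the RefSeq annotation of GRCm38, or within 50 kb of it. By this rule 10 of the 17539 peaks were counted for the family, and each of the 4 genes had at least 1. The same window held at least 1 peak for 56.8% of all protein coding genes. GATA4 occupancy was mapped by chromatin immunoprecipitation and sequencing (ChIP-seq), in which DNA bound by a protein is captured with an antibody. Per the labels, the cells were myoblasts, the proliferating precursors of skeletal muscle, derived from satellite cells of mice of STOCK Myf5tm1Pas/J, which carries a targeted Myf5 allele. They were kept in growth medium with 20% serum and 20 ng/ml basic fibroblast growth factor. Both libraries came from such cells, 1 made with a mixture of 3 GATA4 antibodies and 1 with control IgG. There was no replicate, so no value below has an error between libraries and nothing was tested between them. Peaks of the single deposited list carry a MACS score, the authors' own value per peak, which is used here only to rank peaks within that list. A peak list holds no expression values, so the labelled cell type was not checked against its markers. IgG coverage was not analysed here, and the sequencing depth behind the peaks is unknown.

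MEF2 proteins are transcription factors that bind A/T-rich DNA through a MADS box and an adjoining MEF2 domain. In muscle they act together with the MyoD family of bHLH factors to switch on contractile and metabolic genes. Class IIa histone deacetylases hold them inactive, and calcium and p38 MAP kinase signals release or stimulate them. In the heart, MEF2 proteins are known to be recruited by GATA4 to some cardiac promoters.

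Among the 10 peaks 3 covered an annotated transcription start site, and 1 of these was the start site of a MEF2 gene. The Mef2a start site lay inside a peak that also contained its whole RefSeq promoter window, the 250 bases before and 50 bases after the start. The other 2 start sites belonged to neighbours, the lncRNA gene 1700113A16Rik beside Mef2d and the protein coding gene Slc25a42 beside Mef2b. Over the whole list 8.14% of peaks held a start site of the promoter table. Counted by gene, 7.76% of the protein coding genes in that table had a start site in a peak. The promoters of Mef2a and 1700113A16Rik are printed because each window lay wholly within a peak. Each is cut short after the start site: the 250 upstream bases are shown with the first 8 bases from the start site on for Mef2a and the first 1 for 1700113A16Rik. They run 5′ to 3′ on the gene's own strand, from RefSeq on GRCm38.p6. Capitals mark a MEF2 consensus site in Mef2a and the letters CANNTG, the general E-box of bHLH factors, in 1700113A16Rik. Which bHLH factor might bind each match was not examined.
Mef2a, minus strand, chr7:67372851-67373108: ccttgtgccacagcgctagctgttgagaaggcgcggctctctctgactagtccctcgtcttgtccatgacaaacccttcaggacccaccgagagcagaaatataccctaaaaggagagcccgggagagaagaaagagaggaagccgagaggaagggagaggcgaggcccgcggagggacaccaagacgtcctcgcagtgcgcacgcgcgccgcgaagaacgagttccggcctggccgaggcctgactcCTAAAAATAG
1700113A16Rik, minus strand, chr3:88177785-88178035: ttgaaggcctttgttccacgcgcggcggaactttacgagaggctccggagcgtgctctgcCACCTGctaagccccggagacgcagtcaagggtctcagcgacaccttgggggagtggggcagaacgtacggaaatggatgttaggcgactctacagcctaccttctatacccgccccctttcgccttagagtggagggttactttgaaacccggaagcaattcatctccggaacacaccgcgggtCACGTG

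The Mef2a promoter held 1 match to the MEF2 consensus, CTAAAAATAG, which spanned the start site from base -2 to base 8, counting the start site as base 1. A match to this consensus was present in 3.19% of all 32851 promoter windows of the table. None of the other 5 promoters listed for the MEF2 genes, 1 for Mef2b, 3 for Mef2c and 1 for Mef2d, held one. GATA letters were searched as AGATAA, as its variant TGATAA, then as AGATAG and lastly as its variant TGATAG, on both strands, and 29.8% of all promoter windows held at least 1 of them. None of the 6 MEF2 promoters did, and neither did those of 1700113A16Rik and Slc25a42. This says only that these letters are absent from the 300-base windows; the remaining sequence of the peaks was not used here. The 1700113A16Rik promoter held 2 E-box matches, CACCTG from base -190 to -185 and CACGTG from base -5 to 1, while the Mef2a promoter held none. E-box letters were common, occurring in 72.3% of all windows.

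The members differed in number of peaks and in how close those peaks lay. Mef2a had 6 peaks, Mef2d 2, and Mef2b and Mef2c 1 each. Having a peak in such a window was ordinary, since 56.8% of 21887 protein coding genes did. Within the gene itself, 2 of the 4 members, Mef2a and Mef2c, had a peak, against 21.0% of protein coding genes. These 2 genes are 145 and 163 kb long, against a median span of 17.2 kb for protein coding genes. A longer gene can hold more peaks, so these shares are not of like genes. Of the 10 peaks, 5 lay inside their MEF2 gene, 3 upstream and 2 downstream. These positions are relative to the annotated span. The Mef2a promoter peak thus counted as inside, although its centre was 0.146 kb upstream of the start site in the promoter table. The genes are 14.7 to 163 kb long, so their windows are not of equal size.

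**Figure D1:**
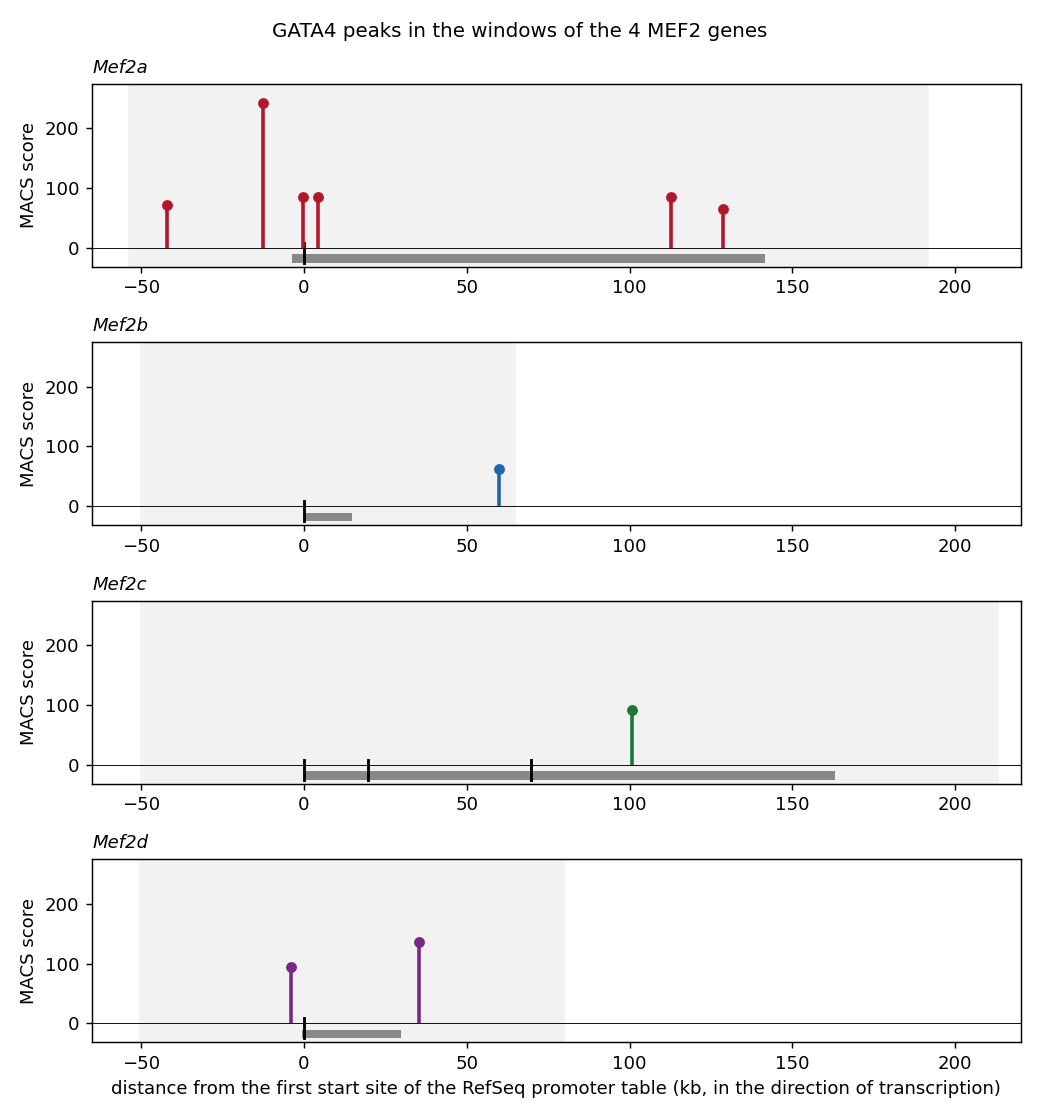
Each panel shows 1 MEF2 gene on a common scale, with the distance from its first start site in the RefSeq promoter table in kb on the x axis, in the direction of transcription, and the MACS score of each peak on the y axis. Grey bars are gene spans, black ticks are start sites, and shading marks the span with 50 kb on either side; Mef2a has 6 peaks, with the tallest at 243 upstream of its start site, while Mef2c has 1 in the middle of the gene.

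Mef2a, which encodes a MEF2 factor of skeletal muscle, heart and brain, is a gene of 145 kb on chromosome 7 (67231163 to 67376456, minus strand). The start site used here, from the promoter table, is at 67372858, which is 3.60 kb inside the upstream edge of the annotated span. The 6 peaks of Mef2a stood in 2 groups, 4 around the start of the gene and 2 toward its far end. The peak with the highest score lay upstream, at 67384996 to 67385863, with its centre 12.6 kb before the start site and 8.97 kb outside the gene. It scored 243 and was 868 bp wide. Its score was higher than that of about 95.2% of the list, at rank 842 of 17539. No other gene of the family had a peak of that height.

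The Mef2a promoter peak, at 67372756 to 67373251, was centred 0.146 kb upstream of the start site and was 496 bp wide. It scored 84.1. A neighbouring peak at 67368408 to 67368886 lay 4.21 kb into the gene and also scored 84.1, with a width of 479 bp. Another peak with that score, 495 bp wide, lay at 67259833 to 67260327, 113 kb into the gene. This score was the most frequent of the whole list, shared by 710 peaks or 4.05% of it, and those peaks were 401 to 600 bp wide. Of the 710, 6.62% held a start site, beside 8.14% of all peaks. Without the peaks of that score Mef2a keeps 3.

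The remaining 2 peaks of Mef2a scored lowest. One, at 67243716 to 67244459, lay 129 kb into the gene and scored 64.6. The other, at 67414375 to 67415237, lay 41.9 kb upstream of the start site and scored 70.7. It was closer to the start of the lncRNA gene Gm51462, 4.35 kb away, than to Mef2a. Neither Gm51462 nor the other neighbours in this window, the lncRNA gene 1700112J16Rik and Lysmd4, held a peak in their spans.

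Mef2a had more peaks than most genes. Fewer than 6 were counted in 96.4% of protein coding windows, and 3.56% of protein coding genes had 6 or more. Mef2a is also longer than 93.0% of protein coding genes, and a longer window can hold more peaks. Per length the value was 2.45 peaks per 100 kb (95% exact Poisson interval 0.898 to 5.32, for counting error only), above that of 88.7% of protein coding windows. The autosomes as a whole had 0.721 per 100 kb and chromosome 7 had 0.642.

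**Figure D2:**
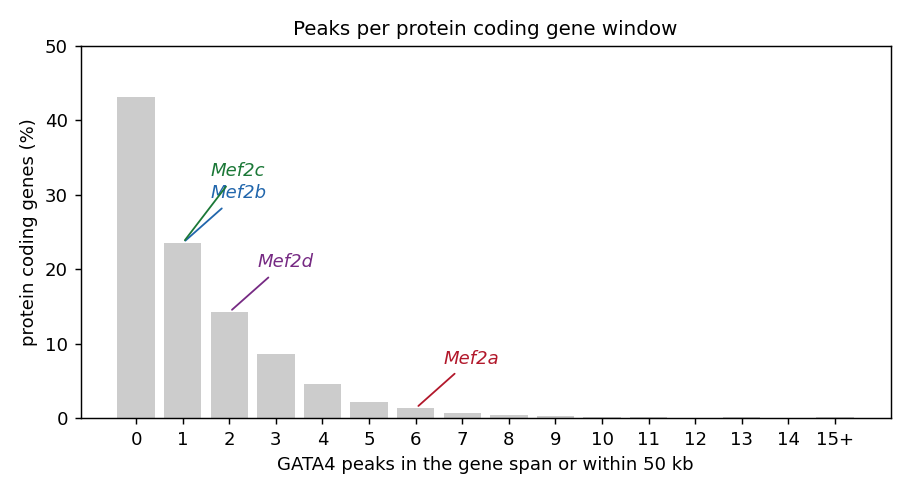
Bars give the share of protein coding genes (y axis, %) with each number of GATA4 peaks in the gene span or within 50 kb (x axis, with 15 and more joined). Mef2b and Mef2c stand at 1 peak, Mef2d at 2 and Mef2a at 6, where 1.33% of genes are found.

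Mef2c encodes the factor needed for heart development and for the integrity of skeletal muscle fibres. It lies on chromosome 13 (83504017 to 83667079, plus strand), is 163 kb long and has 3 start sites in the promoter table. Its only peak, at 83604428 to 83605343, lay 101 kb beyond the first start site and 31.3 kb beyond the third. The peak was 916 bp wide and scored 91.3, above 40.4% of the list. None of the 3 Mef2c promoter windows was overlapped by a peak. The lncRNA gene Gm52043, which is annotated on the minus strand within Mef2c, also contains the peak, so its position does not tell these genes apart. The other lncRNA genes overlapping the Mef2c window, Gm33317, Gm52044 and Gm52046, did not contain the peak.

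The peak inside Mef2c stood far from any other. The next peak on the lower-coordinate side was 1254 kb away and the next on the higher-coordinate side 1559 kb. The median distance to the nearest other peak was 18.7 kb over the list, and 36 of the 17539 peaks were more isolated than the Mef2c peak. Of those 36, 24 were on autosomes, 10 on X and 2 on Y, with none on chromosome 13. No protein coding gene lay wholly inside the lower stretch, and 1, Tmem161b, lay inside the upper one. The isolation was singled out after its value was seen. With 0.380 peaks per 100 kb (95% exact Poisson interval 0.00962 to 2.12), the Mef2c window was below the chromosome 13 value of 0.852. Its interval includes that value and overlaps the interval of Mef2a.

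**Figure D3:**
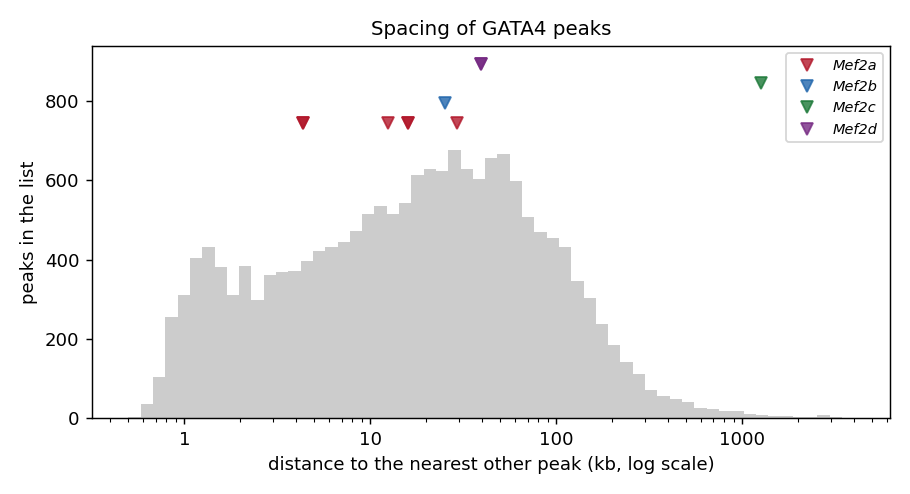
The histogram counts all peaks of the list (y axis) by the distance to the nearest other peak (x axis, kb, log scale), and triangles above it mark the 10 peaks of the MEF2 genes. The Mef2c peak stands at 1254 kb, while the other 9 lie between 4.36 and 39.2 kb.

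Mef2d, expressed widely and in muscle through a tissue-specific splice form, lies on chromosome 3 (88141941 to 88172091, plus strand). Its 2 peaks flanked the gene and none lay inside it. The upstream peak, at 88137937 to 88138780, was centred 4.01 kb before the start site of the promoter table and 3.58 kb outside the annotated span, was 844 bp wide and scored 94.9. The downstream peak, at 88177062 to 88178058, lay 5.47 kb past the end of the gene, was 997 bp wide and scored 136. It was the widest of the 10 and the second highest in score, above 72.5% of the list. This second peak covered the start site of 1700113A16Rik, with its centre 225 bp into that lncRNA gene. The peak was thus at the start of the lncRNA gene and outside Mef2d. The lncRNA gene is on the opposite strand, and its far end overlaps the end of Mef2d by 532 bp. Neither peak lay in the other genes overlapping the Mef2d window, Iqgap3 and the lncRNA genes AW047730 and Gm3764.

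On its lower-coordinate side Mef2d bordered a long stretch without peaks. From the upstream Mef2d peak to the next one there were 1022 kb, compared with a median spacing of 46.9 kb. This stretch wholly contained 26 protein coding genes, among them Iqgap3, which overlaps the Mef2d window. Between neighbouring peaks of the list, 392 of 17518 stretches were at least as long and 58 held at least as many protein coding genes. Mef2d itself had 1.54 peaks per 100 kb (95% exact Poisson interval 0.186 to 5.55). The stretch was singled out after its value was seen.

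Mef2b, best known for its part in germinal centre B cells, had 1 peak in its window and none close to the gene. It is the shortest member, 14.7 kb on chromosome 8 (70152761 to 70167488, plus strand), and is nested at the end of Gm45929, a longer gene model that begins together with Borcs8. Its only peak, at 70212251 to 70213044, lay 45.2 kb past the end of the gene and scored 62.5, above 3.93% of the list and the lowest of the 10. That peak covered the start site of Slc25a42, which encodes a mitochondrial carrier, and was centred 0.367 kb from that gene. The genes Tmem161a and Slc25a42 lie between Mef2b and the peak. Ncan, Rfxank, Nr2c2ap and Borcs8 on the other side had none of the window's peaks. When each peak was given to its nearest protein coding gene, Mef2b had none, while Mef2a kept 6, Mef2d 2 and Mef2c 1.

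The peaks nearest to the 50 kb limit were the Mef2b peak at 45.2 kb inside it and a peak 70.5 kb from Mef2b outside it, which scored 65.4. For Mef2a the corresponding distances were 38.3 kb (score 70.7) and 83.8 kb (score 81.7). Mef2c had no peak near the limit, and for Mef2d the next peak outside was at 125 kb with a score of 134.

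Scores of the MEF2 peaks were mostly in the lower part of the list. Their median was 84.1, against 99.3 for all peaks, and 2 of the 10 were above the list median, while 8 were below it. Those 2 were the upstream Mef2a peak and the downstream Mef2d peak. Widths ran from 479 to 997 bp with a median of 819 bp, against 745 bp in the list. With 10 peaks from 4 loci, several from the same gene, this is a description and not a test.

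**Figure D4:**
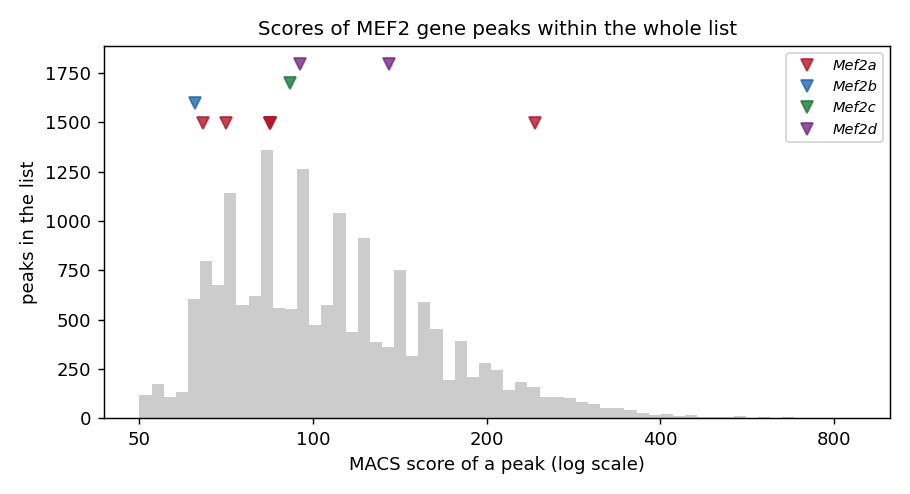
The histogram counts all 17539 peaks (y axis) by MACS score (x axis, log scale), and triangles above it mark the 10 MEF2 gene peaks by gene. Of these, 8 lie below the list median of 99.3, and the Mef2a peak at 243 stands apart from the rest of the family; the tall bars are scores shared by many peaks, up to 710.

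Genes that work with MEF2 were described with the same window. Of 55 genes in 7 lists, 44 had a peak in the span or within 50 kb, or 80.0%, beside the 56.8% of all protein coding genes. Their median was 2 peaks per gene against 1, and 1.36 per 100 kb against 0.708. The listed genes were longer, with a median span of 34.4 kb against 17.2 kb. By list, median spans were 118 kb for corepressors, 88.1 kb for coactivators and 52.1 kb for kinases and phosphatases. They were 22.1 kb for muscle targets, 4.54 kb for immediate early and vascular targets and 2.58 kb for bHLH partners. The list shares are therefore not of like genes. The lists were also written with earlier results of these data known. The difference in share was not tested.

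**Figure D5:**
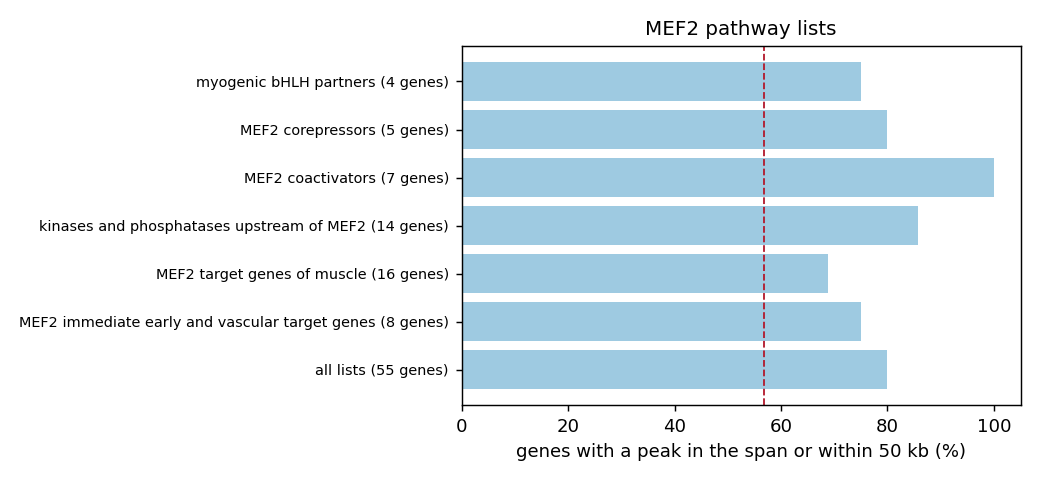
Bars give the share of each list's genes with a GATA4 peak in the span or within 50 kb (x axis, %), with the number of genes after each list name (y axis); the list of Srf alone is not drawn. The dashed line marks all protein coding genes at 56.8%, and the separate lists run from 68.8% for muscle target genes to 100% for the 7 coactivators.

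Among DNA-binding partners, the myogenic bHLH factors had peaks at 3 of 4 genes. Myod1 had 6 peaks, with a highest score of 250 at 25.7 kb. Myf5 and Myf6, which are neighbours, shared the same 3 peaks, the highest at 229. Myog had none within 50 kb. Srf, the gene of the related MADS box factor SRF, had 1 peak, which lay within the gene and scored 64.8.

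Of the 5 corepressor genes 4 had peaks. Hdac9, Hdac4 and Hdac5 encode class IIa histone deacetylases that bind MEF2 directly. Hdac9, a gene of 870 kb, had 6 peaks in its span or within 50 kb, the highest scoring 198. Hdac4 had 5 (highest 157) and Hdac5 had 5 (highest 124). Per length this came to 0.619 for Hdac9, 1.36 for Hdac4 and 3.72 peaks per 100 kb for Hdac5. Cabin1, a calcineurin-binding corepressor, had 2 (highest 173). Hdac7, a further class IIa gene, had none.

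All 7 coactivator genes had a peak. Crebbp, encoding the acetyltransferase CBP, had 4, the highest at 229 inside the gene. Kat2b had 3 (highest 160 at 11.8 kb) and Smarca4, encoding the chromatin remodeller BRG1, had 7 (highest 153 inside the gene). Ep300, encoding p300, had 1 that scored 138 at 25.3 kb. Carm1, Maml1 and Ncoa2 had 3, 4 and 2, and 1 peak was counted for 2 genes of the list.

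Kinases and phosphatases upstream of MEF2 had peaks at 12 of 14 genes. The highest were near Sik1 (184 at 37.0 kb) and Camk1 (153 at 41.5 kb), both far outside the gene. Those of Map2k3, a p38 activator (135), and of Prkd1, a kinase of class IIa deacetylases (124), lay inside the gene. Ppp3ca, a calcineurin catalytic subunit, had 7 peaks in its span of 268 kb or within 50 kb, the highest (124) at 13.1 kb from the gene. Mapk14, encoding p38 alpha, had 1 with a score of 94.7. Camk4 and Ppp3r1 had none.

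Muscle genes known as MEF2 targets had peaks at 11 of 16. The highest scores of any list were at the M-band genes Myom2 (362) and Myom1 (335), both inside the gene, and Myom1 had 12 peaks. Klhl31 had a peak of 304 at 44.4 kb. Ppargc1a, the coactivator of mitochondrial genes, had 12 peaks in its span of 662 kb or within 50 kb, the highest (299) inside the gene. Each of these 4 genes had a peak above the highest one of Mef2a. Actn2, Ckm, Hspb7, Srpk3 and Xirp2 had none, and Srpk3 lies on chromosome X.

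Immediate early and vascular target genes had peaks at 6 of 8. Klf4 had 3, the highest of 254 at 46.4 kb from the gene. Klf6, a gene of 8.90 kb, had 8 in its span or within 50 kb, or 7.35 per 100 kb of that window. The highest scored 153 and lay 16.3 kb from the gene. Bdnf had 1 of score 153 inside the gene, and Nr4a1 had 3 (highest 145 at 46.1 kb). Jun and Klf2 had none. The highest score of Bdnf and Klf6, 152.68, was also that of Smarca4 and Camk1. Hdac5 and Prkd1 likewise had the same highest score, 124.17, which 487 peaks of the list shared. Such equal scores do not rank these genes.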

How the data were processed

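CASAVA 1.8, Bowtie and the build GRCm38 (mm10) are named in the submitters' processing notes. MACS in Galaxy made the peak calls, per the file header. Not stated in these sources are the MACS and Bowtie versions, filters, duplicate handling, threshold and any use of the IgG library. What the authors deposited is a single list of peaks, each with a MACS score, of which the lowest was 50.1. Starts were converted to 1-based positions. Peaks were assigned by centre to RefSeq gene spans of GRCm38.p6 with 50 kb on either side. All 4 members and 55 list genes matched the gene table, and the 4 members had 6 promoters. A start site is the base after the 250 upstream bases of a promoter window. Peaks per 100 kb of a gene used its span with 50 kb on either side. For a chromosome or the autosomes they used annotated chromosome length from 3 Mb onward. AGATAG and TGATAG were added to the planned GATA letters after the files were seen. Counting was tested on simulated peaks. Python 3.11.15, pandas 2.3.3, numpy 2.4.6, scipy 1.17.1 and matplotlib 3.10.9 were used.

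Members and lists were chosen with earlier results of these data known. Named were all members, their peaks, and the protein coding and lncRNA genes overlapping member windows. From each list, up to 4 genes by highest score and the genes without a peak were named. Further list genes were named after their values were seen. No likeness of pattern between genes was computed, since there is 1 library. Alternatives were other windows, score limits, overlap rules and nearest gene assignment.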

Additional observations from a re-analysis of the deposited data

How the results depend on the processing

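The 4 MEF2 genes with a peak became 2 within 1 kb of the span, 2 among peaks above the median score and 1 above the upper quartile of scores. Their 10 peaks became 5, 2 and 1 under the same choices. The share of protein coding genes with a peak, 56.8%, was 33.3% within 10 kb, 24.6% within 1 kb, 69.9% within 100 kb, 36.8% above the median score, 19.9% above the upper quartile, 30.8% with the nearest gene and 55.7% without the most frequent score, a choice made after seeing the data. Of the list genes 22 in place of 44 had a peak above the upper quartile. Narrower windows and higher score limits leave fewer peaks by construction. Within 10 kb, 3 members had a peak. Counting any overlap of 1 bp, or only whole peaks, left the count of 10. No paired analysis was possible because there is 1 library per antibody. Read depth is unknown, so whether weak peaks were missed is not known.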

Other observations

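Promoter windows with their start site in a GATA4 peak, as at Mef2a, can be set beside those outside peaks. Of 1796 such windows, 24.4% held GATA letters (exact 95% interval 22.5% to 26.5%), against 30.1% of 31055 windows with the start site in no peak. The MEF2 consensus was present in 1.67% and 3.28% of the windows, in the same order, and 30 promoters, Mef2a among them, had both a peak over the start site and a consensus match. The median GC content was 59.7% in windows with the start site in a peak and 52.3% in the others, and the Mef2a window had 62.3%. The difference and the part of base composition in it were not tested.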
